A study of Rattus norvegicus with 2 samples.

Results

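The tumour necrosis factor (TNF) superfamily ligands, their receptors and the TNF receptor-associated factors (TRAFs) were described here in rat neural stem cells (NSCs) grown with or without a feeder layer. The members were every gene whose symbol starts with Tnfsf, Tnfrsf or Traf and a number, and 12 relatives under other names (Tnf, Lta, Ltb, Ltbr, Fas, Faslg, Cd40, Cd40lg, Cd27, Cd70, Eda and Edar). They came to 52 of the 22093 genes with a symbol of their own on the array, and comprised 18 ligands, 24 receptors and 10 genes with a Traf symbol, of which 3 (Traf3ip1, Traf3ip2 and Traf3ip3) code for TRAF3-interacting proteins and not for TRAFs. The rule used names only, but it was set with earlier results of these data known.

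NSCs were taken from the whole brain of SD rat embryos at day 13.5 and grown as neurospheres for 10 days in serum-free medium with 25 ng/mL bFGF and 25 ng/mL EGF. The co-cultured NSCs then spent 14 days on ectodermal mesenchymal stem cells (EMSCs) at passage 3 from rats that express green fluorescent protein, in medium with 10% fetal bovine serum, and were recovered by fluorescence-activated sorting. The mono-cultured NSCs spent 14 days without EMSCs; the labels give neither their medium over those days nor a sort. Each condition was 1 whole-transcript array, with no number of animals given, so no difference below has a replicate check and none could be tested. A level is the log2 RMA value of a gene, a difference is the level in co-culture less that in mono-culture, so that a positive value means higher in co-culture, and a difference of 1 is 2-fold.

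TNF family ligands are mostly trimers held in the membrane of the cell that makes them or shed from it. Their receptors either carry a death domain, through which adaptors such as FADD start caspase activation, or bind TRAFs, which lead to the transcription factor NF-kB and to JNK, and decoy receptors bind a ligand without passing the signal on. In brain, TNF is known chiefly as a product of activated microglia, while receptors are found on neurons, glia and their precursors.

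Most members were less than 2-fold apart between the arrays, and those that differed by 2-fold or more were ligands and receptors. Over all 52 members, 4 read 2-fold higher or more in co-culture, beside 2.93% of all genes, and 5 read 2-fold lower or more, beside 3.23%. Together these 9 were 17.3% of the members, beside 6.16% of all genes. The median difference of the 52 was 0.06 and their median absolute difference 0.35, against 0.00 and 0.20 over all genes. The higher genes were the ligand Tnfsf18 and the receptors Tnfrsf11b, Tnfrsf12a and Tnfrsf22, and the lower ones the ligands Tnf, Tnfsf13b and Tnfsf13 and the receptors Tnfrsf14 and Tnfrsf1b.

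Promoters are shown for 4 of these 9 genes, the pair with the lowest differences and the pair with the highest differences among those that have 1 window in the promoter table, so that a reader can see the sequence at genes that went opposite ways. The windows are from RefSeq (build GRCr8), run from 250 bases before to 50 bases after the annotated start and read 5′ to 3′ on the gene's strand. Capitals mark the letters GAGGAA (the core bound by the myeloid factor PU.1) or TATAAA (a core promoter box), searched on both strands.
Tnf, chr20:3626435-3626734, plus strand: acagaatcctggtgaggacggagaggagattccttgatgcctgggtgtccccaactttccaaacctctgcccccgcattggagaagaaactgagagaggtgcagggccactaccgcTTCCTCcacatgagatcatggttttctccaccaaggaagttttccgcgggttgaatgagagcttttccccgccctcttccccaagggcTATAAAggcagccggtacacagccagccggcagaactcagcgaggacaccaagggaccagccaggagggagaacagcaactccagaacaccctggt
Tnfsf13b, chr16:86194450-86194749, minus strand: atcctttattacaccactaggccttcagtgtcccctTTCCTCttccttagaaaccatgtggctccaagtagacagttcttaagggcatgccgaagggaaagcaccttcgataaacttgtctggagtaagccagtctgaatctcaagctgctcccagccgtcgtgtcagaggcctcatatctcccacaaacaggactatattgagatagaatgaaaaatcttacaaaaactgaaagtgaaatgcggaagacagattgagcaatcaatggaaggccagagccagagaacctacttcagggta
Tnfrsf12a, chr10:13213599-13213898, minus strand: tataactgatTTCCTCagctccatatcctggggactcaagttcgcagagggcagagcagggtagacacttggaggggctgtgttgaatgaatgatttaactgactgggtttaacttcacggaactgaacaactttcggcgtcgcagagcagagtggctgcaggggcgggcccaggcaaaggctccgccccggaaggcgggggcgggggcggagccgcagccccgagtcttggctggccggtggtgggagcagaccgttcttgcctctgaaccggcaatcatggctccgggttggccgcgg
Tnfsf18, chr13:76366603-76366902, plus strand: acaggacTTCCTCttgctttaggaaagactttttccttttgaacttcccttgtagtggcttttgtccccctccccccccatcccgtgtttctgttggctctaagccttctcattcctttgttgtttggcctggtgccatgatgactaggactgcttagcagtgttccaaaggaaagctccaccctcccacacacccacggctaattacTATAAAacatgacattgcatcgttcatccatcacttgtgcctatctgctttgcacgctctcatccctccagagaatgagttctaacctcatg

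The letters GAGGAA were found once in each of the 4 windows, on the opposite strand, at genes lower and higher in co-culture alike, and TATAAA once each in Tnf and Tnfsf18, starting 46 and 42 bases before the annotated start. Windows were found for 41 of the 52 members (42 windows), and Tnfrsf11b and Tnfrsf14 are the 2 of the 9 genes without one. GAGGAA stood in 45.2% of member windows and 27.6% of all 33469 windows, TATAAA in 21.4% and 14.2%, the AP-1 motif (TGANTCA, with C or G at N) in 7.14% and 4.63%, and the NF-kB consensus in 21.4% and 7.51%. The NF-kB letters searched were GGGRNNYYCC, with A or G at R, C or T at Y and any base at N. The 9 members with an NF-kB match were Cd70, Fas, Lta, Ltb, Tnfrsf8, Tnfsf14, Traf3, Traf3ip2 and Traf7. None of these was 2-fold apart, beside 17.3% of all 52 members, which with 9 genes says nothing particular about them. A match to such letters is a description of the window and no evidence that a factor binds there.

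Brightness limits what can be read from these genes. A gene was kept for counts when its higher level reached the median of all gene levels, 4.97, and 29 of the 52 members did, with 20 of them reaching it on both arrays. The kept 29 hold all 9 genes named above, and 10.6% of all kept genes were 2-fold apart; the filter passes genes through their brighter array, so the larger share among the 29 is not independent of it. The 23 dimmer members differed by -0.93 to 0.77. A second mark is 6.64, the 95th percentile of the array's 1153 negative controls (here the negative control level), which only 11 members exceeded on at least 1 array and 5 on both. Of the 9 genes, 4 exceeded it on their brighter array and only Tnfrsf12a on both. Of the negative controls themselves 12.8% were 2-fold apart, so the 17.3% of members has to be read beside that share as well as beside the 6.16% of all genes. All 18 ligands lay below it on both arrays, so none of the ligand differences stands clear of background brightness.

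**Figure D1:**
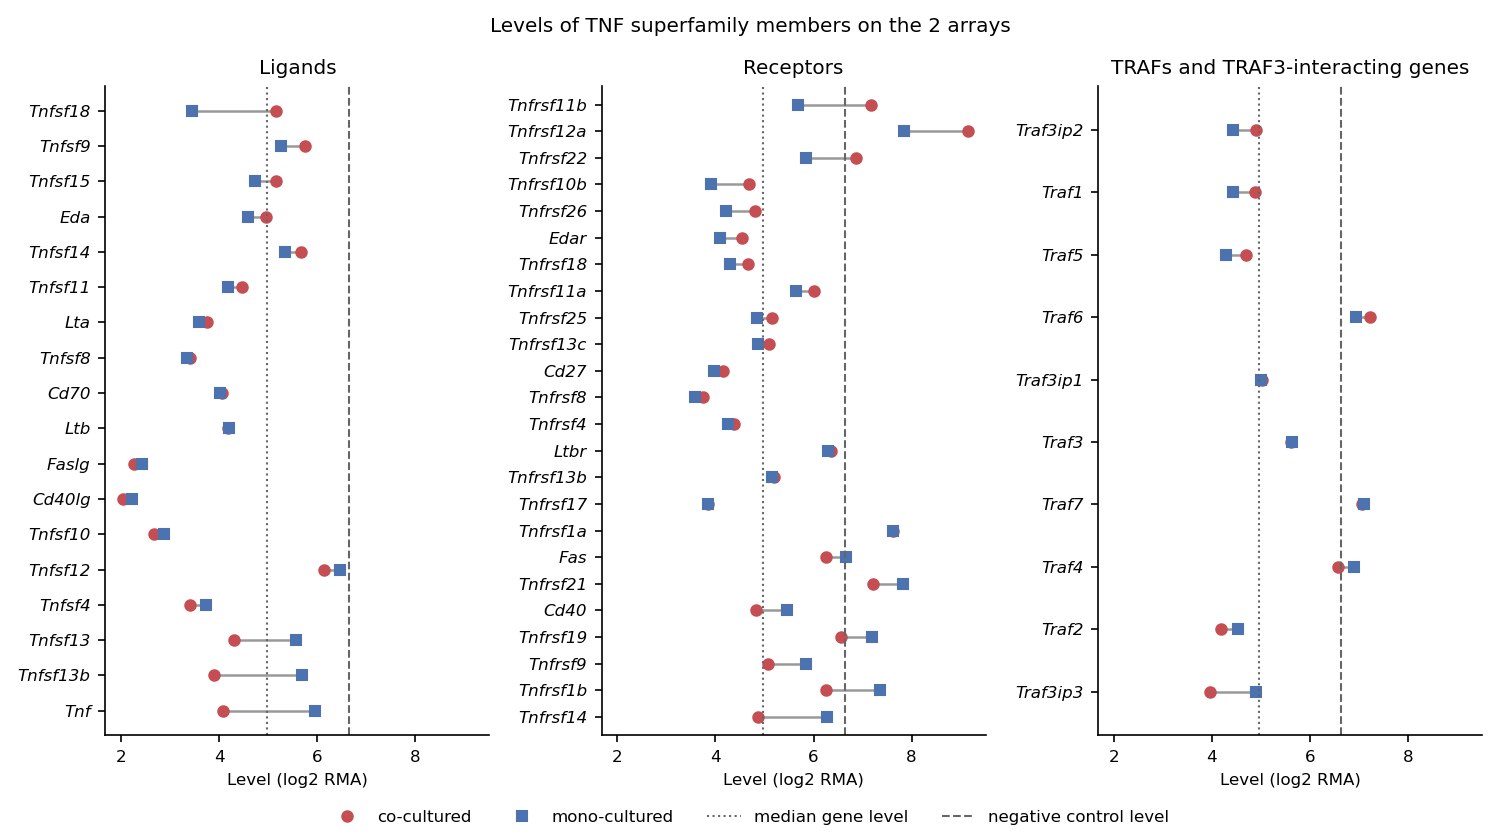
Levels (log2 RMA) of the 52 members on the co-cultured (red circles) and the mono-cultured array (blue squares), by class and ordered by difference, with 1 array per condition and no error bars. The dotted line is the median gene level (4.97) and the dashed line the negative control level (6.64); the points of a gene can be compared with each other, not with those of other genes.

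Of the ligands, TNF itself, the inflammatory cytokine that names the family, was the lowest. Tnf read 4.09 in the co-cultured and 5.96 in the mono-cultured NSCs, which is a difference of -1.87. It has 2 probe sets on the array, with differences of -2.21 and -1.52, so both read lower in co-culture. The lymphotoxin genes Lta and Ltb, whose products share receptors with TNF or bind the lymphotoxin beta receptor, were dim on both arrays, with 3.76 against 3.59 and 4.19 against 4.20.

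The ligands of B cell survival and antibody production, BAFF and APRIL, were lower too. Tnfsf13b, which codes for BAFF, read 3.89 against 5.70, a difference of -1.81. Tnfsf13, the gene of APRIL, read 4.30 against 5.57, a difference of -1.27. Tnfsf12, which codes for TWEAK and lies next to Tnfsf13 on chromosome 10, read 6.14 against 6.45 and so was not among the genes 2-fold apart.

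Tnfsf18, the ligand of the T cell receptor GITR, was the only ligand at least 2-fold higher in co-culture. Its level was 5.16 against 3.45, a difference of 1.72. That higher value lies just above the median gene level, and when levels below 4.97 were raised to 4.97 the difference shrank to 0.19. The same treatment left -0.99 for Tnf, -0.73 for Tnfsf13b and -0.60 for Tnfsf13, so the size, and with it the 2-fold call, of all 4 ligands rests on levels below the median of the array.

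Of the other ligands that reached 4.97, Tnfsf9 (ligand of the co-stimulatory receptor 4-1BB) read 5.76 against 5.26, Tnfsf15 (TL1A, a ligand of endothelial origin) 5.15 against 4.73 and Tnfsf14 (LIGHT) 5.68 against 5.34. Their differences of 0.50, 0.42 and 0.34 fall short of 2-fold. The 10 ligands that did not reach 4.97 differed by -0.33 to 0.38 and included the death ligands Faslg (2.27 against 2.42) and Tnfsf10 (TRAIL, 2.67 against 2.88), the osteoclast factor Tnfsf11 (RANKL, 4.47 against 4.18), Cd40lg, Cd70, Tnfsf4, Tnfsf8 and the ectodermal ligand Eda (4.96 against 4.58). The median over all 18 ligands was 0.01.

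Both decoy receptors were among the genes 2-fold higher or more in co-culture, beside 2.93% of all genes, but 2 genes are too few to describe a class. Tnfrsf11b codes for osteoprotegerin, a secreted decoy for RANKL and TRAIL, and read 7.18 against 5.69, which is 2.82-fold. Tnfrsf22, known from mouse as a decoy receptor for TRAIL, read 6.87 against 5.85, a difference of 1.02 that barely passed 2-fold. Its neighbour on chromosome 1, Tnfrsf26, was dimmer, at 4.80 against 4.21.

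Of the 15 receptors placed in the TRAF-binding class, 10 reached 4.97, 1 of them 2-fold higher or more and 2 of them 2-fold lower or more. Over all kept genes these shares were 5.04% and 5.54%, and with 10 genes such counts say nothing particular about the class. Tnfrsf12a, which codes for Fn14, the TWEAK receptor that many cells induce after injury or growth factor exposure, read 9.15 against 7.85, a difference of 1.31 or 2.47-fold. It is the only one of the 9 genes with both levels above the negative control level; over all genes bright on both arrays in this way, 4.19% were 2-fold apart. Tnfrsf14, which codes for HVEM, the receptor of LIGHT, read 4.87 against 6.28, a difference of -1.41. Tnfrsf1b codes for the second TNF receptor, which is found mainly on immune, endothelial and glial cells, and read 6.26 against 7.36, a difference of -1.10.

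Some receptors were lower by less than 2-fold. Tnfrsf9 (4-1BB) read 5.06 against 5.85, Tnfrsf19 (TROY, a receptor of neural progenitors) 6.56 against 7.20, and Cd40 (a receptor of antigen-presenting cells) 4.83 against 5.46. Their differences were -0.79, -0.64 and -0.63. The remaining bright TRAF-binding receptors lay within 0.36 of no difference, with Ltbr at 6.36 against 6.30, Tnfrsf11a (RANK) at 6.01 against 5.65, Tnfrsf13b at 5.20 against 5.15 and Tnfrsf13c (the BAFF receptor) at 5.09 against 4.88. Cd27, Tnfrsf4, Tnfrsf8, Tnfrsf17 and Tnfrsf18, receptors known mainly from lymphocytes, stayed below 4.97 on both arrays.

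Of the 6 death domain receptors 0 were 2-fold apart, which with 6 genes and 6.16% of all genes past 2-fold says nothing particular about them. Tnfrsf1a, the widely expressed first TNF receptor, had nearly equal levels of 7.61 and 7.63. Tnfrsf21 (death receptor 6, studied in axon pruning and in oligodendrocytes) read 7.21 against 7.82 and Fas, the receptor of Fas ligand, 6.26 against 6.67, differences of -0.61 and -0.41. Tnfrsf25 read 5.16 against 4.85. Tnfrsf10b, the death receptor of TRAIL, and Edar, the ectodysplasin receptor, did not reach 4.97 and read 4.69 against 3.91 and 4.55 against 4.10.

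Of the 10 genes with a Traf symbol, 5 reached 4.97 and 0 were 2-fold apart, beside 6.16% of all genes, so that with 10 genes a count of 0 sets the class apart from nothing. The median absolute difference was 0.34 over all 10, beside 0.32 over the 18 ligands and 0.43 over the 24 receptors. Traf6, the ubiquitin ligase shared with Toll-like and interleukin 1 receptors, read 7.23 against 6.94. Traf7 read 7.05 against 7.10, Traf4, a TRAF of developing epithelia and neural tissue, 6.57 against 6.90, and Traf3, a brake on non-canonical NF-kB signalling, 5.61 against 5.63. The differences of these 4 ran from -0.33 to 0.29. Traf1, Traf2 and Traf5 were dimmer, with differences of 0.45, -0.35 and 0.41, and the 2 probe sets of Traf2 (-0.22 and -0.48) had the same sign. These 2 probe sets read 5.37 against 5.58 and 3.02 against 3.50, so Traf2 fell below 4.97 only as their mean. Of the TRAF3-interacting genes, Traf3ip1 (a component of cilia) read 5.03 against 5.00, Traf3ip2 (an adaptor of interleukin 17 receptors) 4.90 against 4.44, and Traf3ip3, known from lymphocytes, 3.96 against 4.89, the lowest difference of the class at -0.93.

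**Figure D2:**
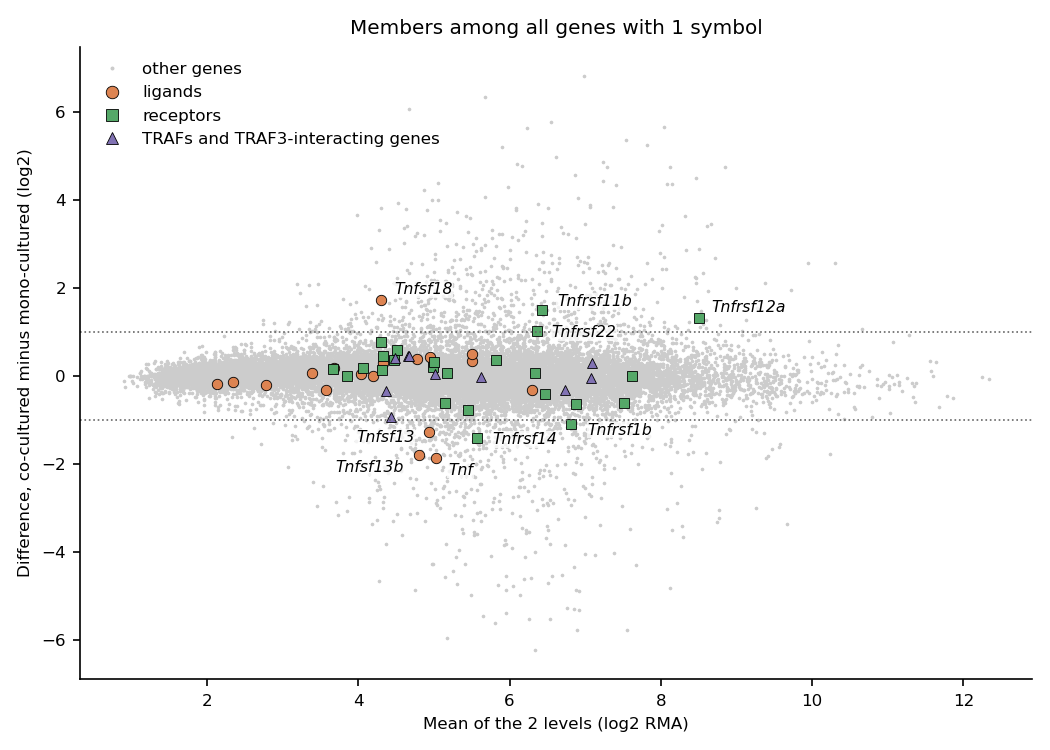
Difference (co-cultured minus mono-cultured, log2) against the mean of the 2 levels (log2 RMA) for all 22093 genes with 1 symbol (grey) and for the ligands, receptors and Traf genes (coloured), with dotted lines at 2-fold. The 9 named members lie outside the lines, between -1.87 and 1.72, well inside the range of all genes, which runs from -6.24 to 6.82.

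Ligands were also set beside their receptors. Of 25 known ligand and receptor pairs among the members, both partners reached 4.97 in 10, and in 1 pair both were 2-fold apart, Tnf with Tnfrsf1b, both lower. Of the 29 kept members 31.0% were 2-fold apart, so a single such pair among 10 is no finding about pairing. In the TWEAK pair the receptor was higher (Tnfrsf12a, 1.31) and the ligand Tnfsf12 differed by -0.32. In the LIGHT pair the receptor Tnfrsf14 was lower (-1.41) and the ligand Tnfsf14 differed by 0.34. BAFF was lower, at -1.81, while its receptors Tnfrsf13c and Tnfrsf13b differed by 0.21 and 0.06. Tnfsf18 was higher, at 1.72, and its receptor Tnfrsf18 was below 4.97 on both arrays, at 4.66 against 4.29.

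**Figure D3:**
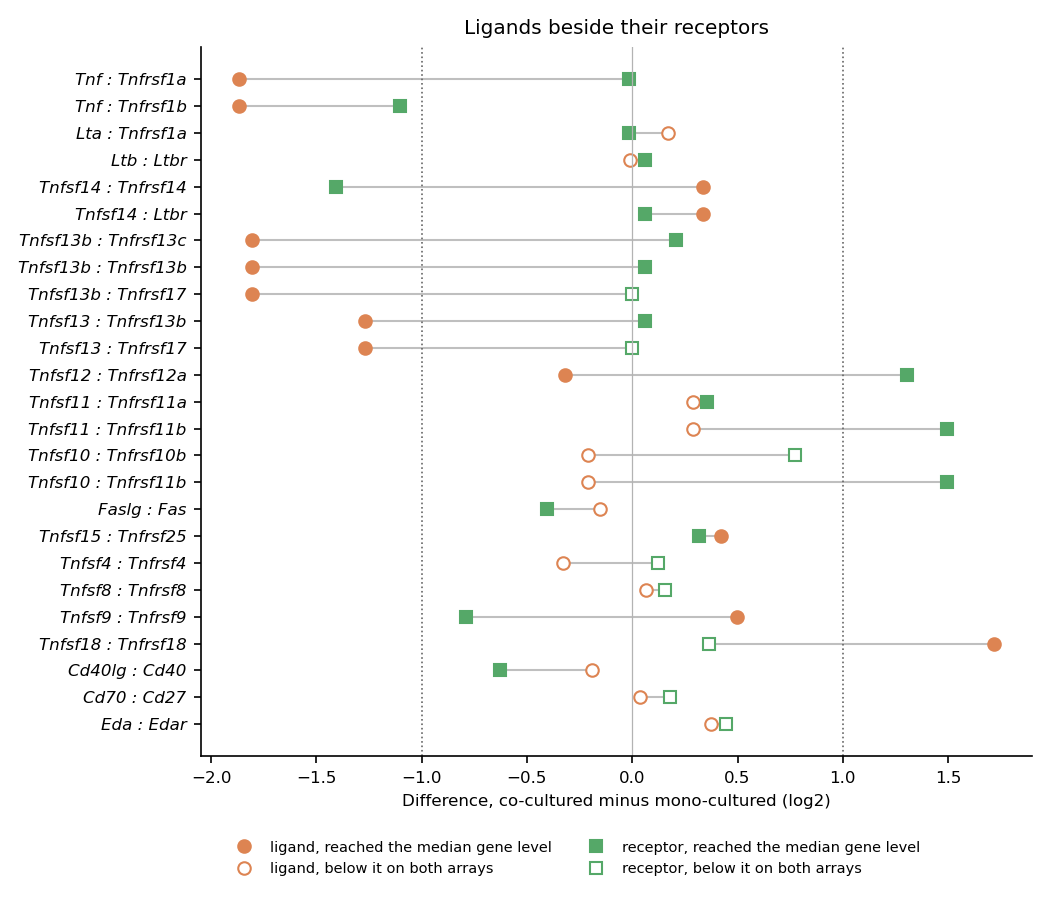
Differences (co-cultured minus mono-cultured, log2) of the ligand (circle) and the receptor (square) in 25 known pairs, with dotted lines at 2-fold. Filled symbols reached the median gene level on at least 1 array, and only in the pair of Tnf and Tnfrsf1b do both filled symbols lie beyond 2-fold.

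Many family genes stand next to each other in the genome. In the current rat gene table, 22 members fall into 9 groups with at most 4 coding genes between neighbours. In the group on chromosome 20, inside the MHC region, Tnf differed by -1.87 and its direct neighbours Lta and Ltb by 0.17 and -0.01. In the group on chromosome 13, Tnfsf18 differed by 1.72 and its neighbours Tnfsf4 and Faslg by -0.33 and -0.15. On chromosome 5, Tnfrsf1b differed by -1.10 and the adjacent Tnfrsf8 by 0.16. In some other groups all neighbours had the same sign: Tnfrsf22 and Tnfrsf26 differed by 1.02 and 0.60, and Tnfsf13 and Tnfsf12 by -1.27 and -0.32. The same holds, without a gene 2-fold apart, for Tnfsf15 and Tnfsf8 (0.42 and 0.07), for Tnfrsf4 and Tnfrsf18 (0.12 and 0.37) and for Tnfsf9, Cd70 and Tnfsf14 (0.50, 0.04 and 0.34), while Cd27, Ltbr and Tnfrsf1a lay close to 0 (0.18, 0.06 and -0.02). How often neighbours share a sign over all genes was not counted, so these matches say nothing particular about the family. Tnfrsf26, Tnfsf8, Tnfrsf4, Tnfrsf18 and Cd70 were below 4.97 on both arrays. Of all 10244 such dim genes, 5708 had a positive and 3344 a negative difference. No member overlaps the previous member of its group in that table.

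Family genes outside the naming rule were read as well. Ngfr, the low-affinity neurotrophin receptor and a death domain receptor of this family, read 9.58 against 5.24, a difference of 4.34. Its lower level was below the negative control level, so the size of that difference depends on background brightness. Relt and Eda2r, a receptor of ectodysplasin, had differences of 0.14 and 0.09, and the adaptor gene Edaradd 0.12 at levels below 4.97. Of the 6 genes listed for ligand processing, 0 were 2-fold apart, beside 6.16% of all genes, which with 6 genes says nothing particular about them. Adam17, the protease that sheds TNF, read 7.24 against 7.37, and its inhibitor Timp3 7.20 against 6.26.

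The kept signalling genes below the receptors differed about as much as other genes, with a median absolute difference of 0.26 beside 0.26 over all kept genes. Of 45 listed genes 43 were measured here and 42 reached 4.97, and 0 of these read 2-fold higher and 1 read 2-fold lower, beside 5.04% and 5.54% of all kept genes, with a median of -0.15 against -0.06 over all kept genes. The 1 gene was Bid, which links death receptors to mitochondria, at 5.92 against 6.92, and its difference of -1.01 ended short of 2-fold under median centring, quantile normalization and loess. Tradd and Ripk1, adaptors of the first TNF receptor, read 5.36 against 5.24 and 6.14 against 6.14. Fadd read 5.83 against 6.19 and its partner Casp8 4.62 against 5.25. The NF-kB subunit genes Rela, Relb, Rel, Nfkb1 and Nfkb2 differed by 0.38, -0.32, -0.38, -0.34 and -0.17.

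Genes that TNF and NF-kB are known to induce went both ways. Of 38 listed genes 32 reached 4.97, with a median of 0.10, beside -0.06 over all kept genes. Of the 32, 5 (15.6%) read higher and 4 (12.5%) read lower beyond 2-fold, beside 5.04% and 5.54% of all kept genes. Higher were the prostaglandin synthase gene Ptgs2 (10.50 against 5.76), Il6 (5.81 against 2.16), the protease gene Mmp3 (6.80 against 3.79), the chemokine gene Cxcl1 (9.20 against 7.42) and the hyaluronan-binding gene Tnfaip6 (6.96 against 5.73). Lower were the survival gene Bcl2a1 (2.89 against 5.77), the adhesion gene Vcam1 (5.70 against 8.40), Il1b (4.08 against 6.16) and the gelatinase gene Mmp9 (5.99 against 7.41). Of these higher and lower genes, Il6, Bcl2a1 and Il1b lay below the negative control level (6.64) on both arrays. Only Cxcl1 exceeded it on both, so the size of the other differences depends on background brightness. The feedback inhibitors Nfkbia and Tnfaip3, which are induced by NF-kB in most cells, read 8.06 against 7.63 and 7.84 against 7.23. The other Nfkbi and Tnip genes of the list went both ways. Nfkbiz and Tnip1 differed by 0.999 and 0.06, and Nfkbib, Nfkbie and Tnip2 by -0.08, -0.19 and -0.55. Many of these genes also answer to signals other than TNF.

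Markers of microglia and of mesenchymal cells also differed, with medians of -4.43 and 3.15. All 12 microglia and macrophage markers read lower in co-culture by over 2-fold, with differences of -5.79 to -1.04 and a summed level (log2 of the sum of linear levels) of 8.63 against 12.86. Of the 12, 1 exceeded the negative control level in co-culture and 10 in mono-culture. Of 12 mesenchymal markers 11 were at least 2-fold higher, with differences of 0.27 to 5.20 and a summed level of 13.55 against 10.13, and 11 exceeded the negative control level in co-culture and 3 in mono-culture. Tnf, Tnfsf13b, Tnfsf13, Tnfrsf14 and Tnfrsf1b were lower on the array with the lower microglia markers, and Tnfrsf11b, Tnfrsf12a, Tnfrsf22 and Tnfsf18 higher on the array with the higher mesenchymal markers. With only 2 arrays the same can be said of every gene that differs in that direction, so it ties no member to a cell type. The part of these cells in the differences was not tested, and with 1 array a condition the culture, the serum, the sort and the mix of cells cannot be told apart. In RNA from a bulk of cells, fewer cells of a type and less RNA per cell cannot be told apart either.

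Among lymphocyte markers, 7 of 8 T cell genes and all 4 measured B cell genes were below 4.97 on both arrays, and the exception was Cd4, at 3.71 against 7.80, which rat macrophages also express. The neural stem cell markers listed here were present in part. Of 8 measured, 4 exceeded the negative control level on both arrays, Sox2 (8.69 against 8.83), Nes (8.25 against 7.45), Fabp7 (7.81 against 9.76) and Notch1 (6.96 against 7.31), whereas Pax6 and Prom1 were below 4.97 on both. Of the 6 that reached 4.97, 5 read lower in co-culture, Fabp7 by more than 2-fold, and the 8 summed to 10.23 against 10.86. Astrocyte markers were lower in co-culture in 5 of 8 cases by 2-fold or more and higher in 1, with a summed level of 9.46 against 11.06. Neuron markers summed to 9.28 against 9.83, oligodendrocyte lineage markers to 11.08 against 10.81, and endothelial markers, 4 of 6 below 4.97, to 7.01 against 7.15.

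**Figure D4:**
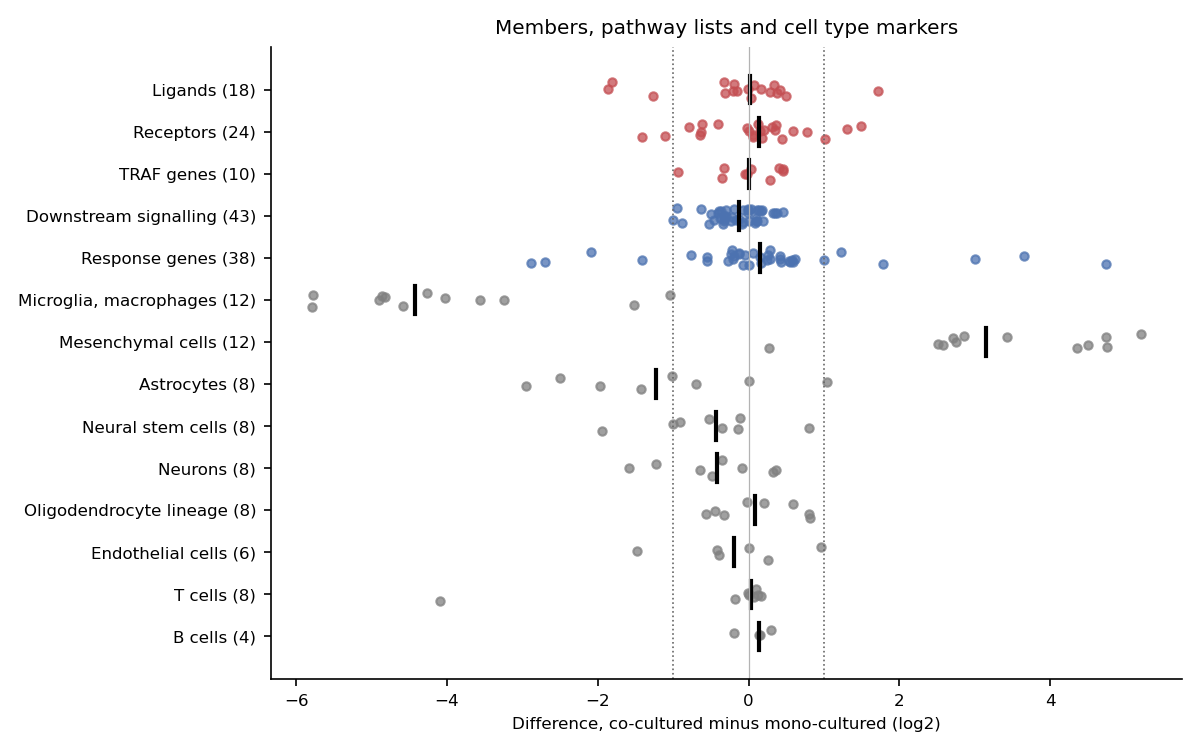
Differences (co-cultured minus mono-cultured, log2) of every measured gene in each class of members (red), pathway list (blue) and cell type marker list (grey), with the number of genes in brackets, the median as a black bar and dotted lines at 2-fold. Microglia markers (median -4.43) and mesenchymal markers (median 3.15) lie farther from 0 than the members, whose class medians are 0.01, 0.14 and 0.00.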

How the data were processed

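Biotin-labelled cDNA from 250 ng of total RNA went on 1 array per condition, per the labels' protocols. The deposited table holds a log2 level for each transcript cluster, made with RMA per the submitters' processing notes, whose version is not given in the sources used here. RMA equalises the distributions of arrays, so a shift of most genes together cannot be seen.

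The platform annotation gave 1 symbol to 23446 probe sets, and 505 with several symbols were left out, none of them naming a member. Probe sets were averaged per gene, which affected 4 members, and all 52 members matched the current rat gene table (GRCr8) by Entrez ID. Single arrays allow no p-value, and their number limits the precision. The spread that the files show is technical: 478 genes had several bright probe sets, whose differences scattered with an SD of 0.26 within a gene, and 12.8% of the negative and 4.51% of the 399 positive control probe sets were 2-fold apart. The members, lists and settings were chosen with earlier results of these data known. Named were the members that reached the median gene level, those past 2-fold, and in the pathway lists the genes past 2-fold, the receptor adaptors and the NF-kB subunits. Nfkbia, Tnfaip3, the other Nfkbi and Tnip genes, Adam17, Timp3, dim members and marker genes were named after their values were seen. Some genes were not analysed here. Counting was tested on simulated data. Tools were Python 3.11.15, numpy 2.4.6, pandas 2.3.3, matplotlib 3.10.9, and R 4.3.3 with limma 3.58.1.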

Additional observations from a re-analysis of the deposited data

How the results depend on the processing

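Alternatives were other scalings between arrays (median centring, quantile normalization, loess with span 0.4), other filters on brightness, dim levels raised to the limit, the brightest probe set of a gene, other thresholds, the members without the Traf3ip genes, and means. No paired analysis was possible because there is 1 array per condition, and no replicate could be left out. The 9 members 2-fold apart were the same 9 under the 3 scalings and with the brightest probe set, and 5 of the 9 remained with dim levels raised. The scalings and the choice of probe set had little room to change the calls. RMA had already equalised the arrays, and the scalings moved the median of all genes by only 0.012, 0.0097 and 0.0082. Of the 9, only Tnf has more than 1 probe set. Tnf differed by -2.21 with its brightest probe set. Of 145 values of single genes under an alternative 140 lay within 0.26 of the reported one and no member past 2-fold changed sign, while the differences near 0 of Tnfrsf1a and Traf3 did under some settings. That share says little about stability, because many values could not move. A gene with 1 probe set keeps its value with the brightest probe set. A gene at 4.97 or more on both arrays keeps it with dim levels raised. The other 5 values were those of Tnf, Tnfsf13, Tnfsf13b and Tnfsf18 with dim levels raised, and of Tnf with its brightest probe set. The count of 5 lower members was 1 with the filter at the 75th percentile (6.30), with both levels at 4.97 or more, and with the filter at the negative control level, 2 with dim levels raised, 9 at 1.5-fold and 0 at 4-fold. The count of 4 higher members was 0 at 4-fold. The ligand median of 0.01 was -0.32 over the 1 ligand above the 75th percentile, 0.34 over the 3 that reached 4.97 on both arrays, and -0.29 as a mean. In the downstream list the 1 lower gene became 0 under median centring, quantile normalization, loess and at 4-fold, and 4 at 1.5-fold. In the response list the 5 higher genes were 6 under median centring, quantile normalization and loess. They were 3 with both levels at 4.97 or more, 8 at 1.5-fold and 3 at 4-fold. The 4 lower genes were 2 under the 3 brighter filters. The 3 brighter filters and the raised levels remove dim values by construction. Brightness over background is the main limit, since only 5 members lay above the negative control level on both arrays.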
